A study of Mus musculus with 5 samples.

Results

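The imprinted growth regulators examined here are 10 genes that are expressed mainly from 1 parental allele and that act on growth of the embryo or placenta. They are Mest, Dlk1, Nnat, Peg3, Peg10, Plagl1 and Igf2, which are expressed from the paternal allele, and Cdkn1c, Grb10 and Phlda2, which are expressed from the maternal allele (Grb10 from the paternal allele in neurons). Members were every probe whose symbol in the platform's probe annotation was on this list, which gave 12 of the 24613 probes on the array, for 9 of the 10 genes. No probe of the table used here was annotated to Peg10, so that gene has no value. The samples were 5 Illumina arrays of F9 cells, mouse embryonal carcinoma cells that turn into extra-embryonic endoderm in retinoic acid. Of these, 3 were of cells with a combined knockdown of the transcription factors Sox7 and Sox17, and 2 were of control cells. All 5 carried the retinoic acid label, so the groups share that treatment. The labels give neither its dose and duration, nor the knockdown method, nor what the control cells received.

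Genomic imprinting marks an allele in the germ line by DNA methylation, so that later only the copy from the mother or from the father is transcribed. Many paternally expressed imprinted genes promote growth (Igf2 is the classic example), and many maternally expressed genes restrain it (Cdkn1c, Grb10 and Phlda2 are well-known examples), although the division is not strict. The array measures the summed transcript of both alleles, so it gives no information on which allele was expressed.

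Values are the deposited normalized intensities on a linear scale. Differences are knockdown minus control on a log2(intensity + 16) scale, where the offset shrinks the differences of dim probes. A probe counted as detected on an array above a noise threshold of 20.1 to 20.2 intensity units, set from the values below 0. Probes detected on at least 2 of the 5 arrays were tested, 13624 in all, with limma, and a gene is said to have risen or fallen where the p adjusted over all of them (Benjamini-Hochberg) was below 0.05. The targeted genes were lower in each knockdown array. Sox17 had 283, 309 and 243 intensity units in knockdown cells, against 1798 and 1732 in control cells, and Sox7 had 490.1, 403 and 471 in knockdown cells, against 1306 and 1152 in control cells. Nothing in the labels says that replicates came from separate cultures, so the p-values speak only to the spread over these arrays, part or all of which may be technical.

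Most of the imprinted growth regulators that could be tested rose in knockdown cells. Of the 10 genes, 8 had a tested probe, and of these 6 rose (Nnat, Mest, Dlk1, Igf2, Cdkn1c and Phlda2), 1 fell (Peg3) and 1 was not called (Plagl1). Over all 9685 tested genes, 17% were called, 8.99% higher and 7.97% lower. Leaving out either control array left Nnat, Mest and Dlk1 as the 3 rises and 0 falls, and leaving out knockdown replicate 1 or 3 left 5 rises and 0 falls. By probe, 10 of the 12 were tested and 8 were called, 7 higher and 1 lower, where 15.9% of all tested probes were called, 8.38% higher and 7.51% lower. The groups did not overlap at any of the 10 tested probes, where that held for 50.1% of all tested probes and 51.6% of all tested genes. The dimmer Nnat and Mest probes passed the filter through knockdown arrays alone. Their separation, and the Nnat call among them, is therefore no support apart from the filter. In bulk RNA of this kind a larger share of expressing cells and more transcript per cell cannot be told apart.

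**Figure D1:**
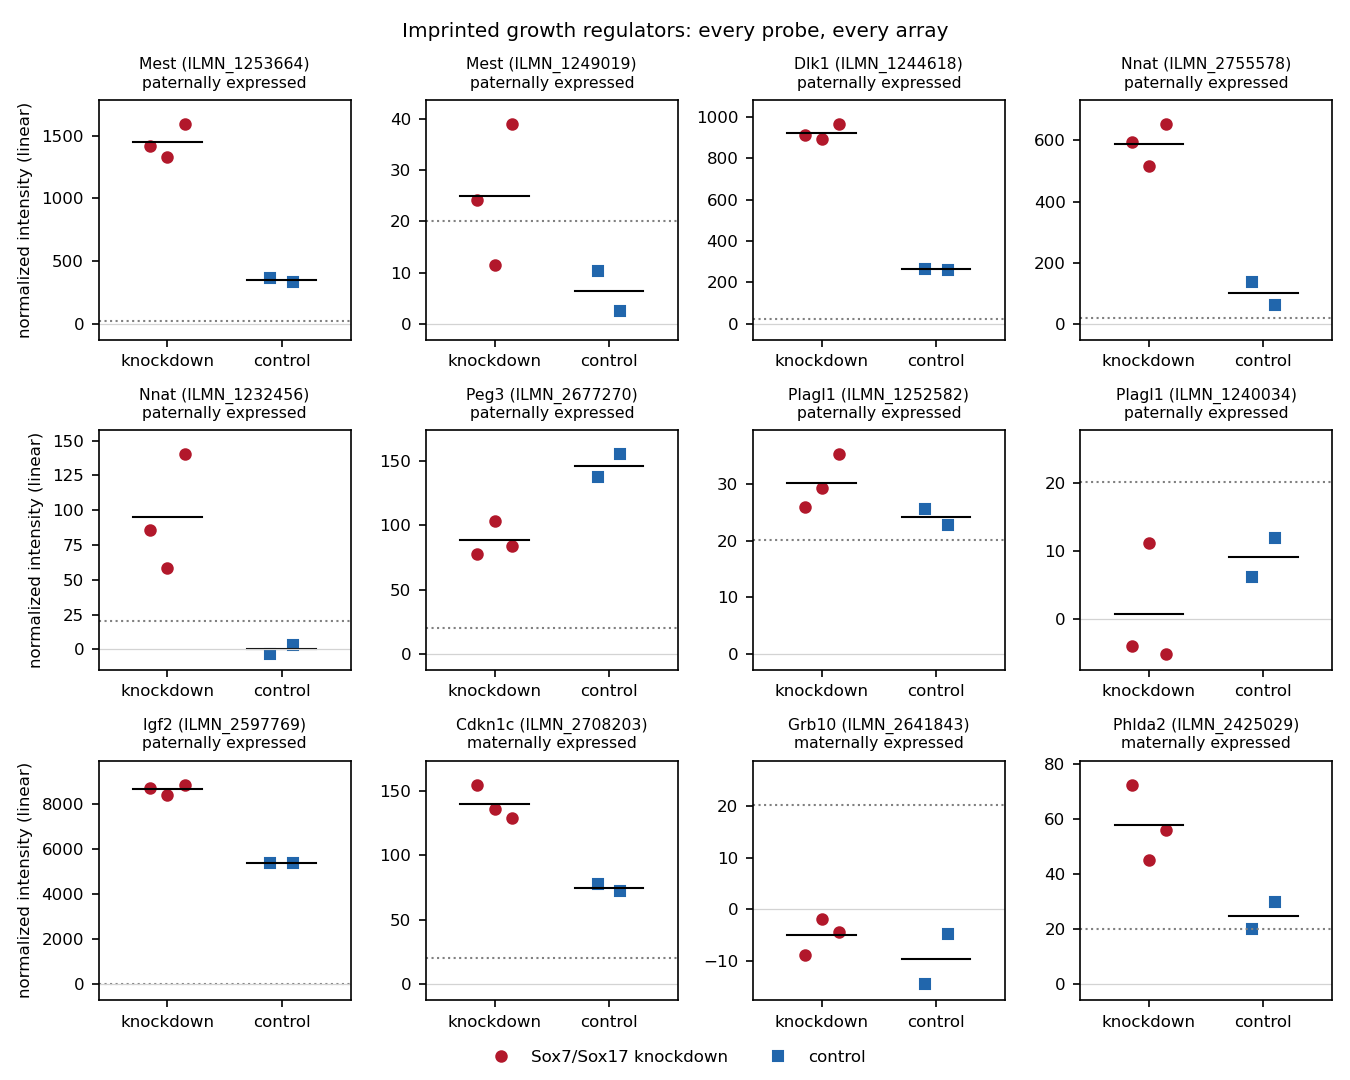
Normalized intensity (linear scale, separate axis for each probe) at all 12 member probes, with 1 point for each array, knockdown left and control right. Black bars are group means, the dotted line is the noise threshold, and the pale line is 0. The knockdown arrays lie above the control arrays for Mest, Dlk1, Nnat, Igf2, Cdkn1c and Phlda2 and below them for Peg3, while Grb10 and the dimmer Plagl1 probe stay under the noise threshold.

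The largest differences were in Nnat, Mest and Dlk1. Nnat encodes neuronatin, a small proteolipid of the endoplasmic reticulum that affects calcium handling. Its brighter probe (ILMN_2755578) had 594, 516 and 653 intensity units in knockdown cells, against 136 and 62.6 in control cells. All knockdown arrays were far above both control arrays, which themselves differed widely. The mean was 588 ± 68.9 (SD, n = 3) in knockdown cells and 99.2 ± 51.8 (SD, n = 2) in control cells, a rise by 2.46 (SE 0.278, 95% interval 1.78 to 3.14, limma adjusted p = 0.0044). The other Nnat probe (ILMN_1232456), annotated to a different transcript, had 85.7, 58.8 and 140.2 in knockdown cells, against -3.26 and 3.32 in control cells. Neither control array was thus above the noise threshold, and the rise was at least 4.42-fold in intensity (limma adjusted p = 0.0048). At the offset of 16, this probe held rank 7 and the brighter one rank 9 among the rises of all 13624 tested probes. The dimmer probe passed the filter through its knockdown arrays alone, so its call and rank are no separate support for the rise. The fitted difference of the dimmer probe depends on the offset, at 5.44 with an offset of 1 and 1.24 with an offset of 64. Both Nnat calls held whichever array was left out, and both were lost when no filter on dim probes was used (adjusted p = 0.067 for the brighter and 0.071 for the dimmer).

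Mest encodes a membrane protein of the alpha/beta hydrolase fold that is used as a marker of mesoderm and of fat cell enlargement. Its brighter probe (ILMN_1253664) had 1419, 1332 and 1591 intensity units in knockdown cells, against 362 and 331 in control cells. The groups were well separated, with 1447 ± 132 (SD, n = 3) in knockdown cells and 347 ± 21.3 (SD, n = 2) in control cells. The rise was 2.01 (SE 0.116, 95% interval 1.73 to 2.29, limma adjusted p = 0.00081), and the call held under every alternative that was run. The other Mest probe (ILMN_1249019) was near the noise, with 24.2, 11.4 and 39.0 in knockdown cells, against 10.3 and 2.56 in control cells. It was detected in 2 of the knockdown arrays and in neither control array, and its difference of 0.83 (SE 0.307) was not called (limma adjusted p = 0.12).

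Dlk1 encodes a transmembrane protein with EGF-like repeats, related to the Notch ligands, that holds back the differentiation of fat cell precursors. Its probe (ILMN_1244618) had 913, 895 and 965 intensity units in knockdown cells, against 266 and 259 in control cells. The arrays of each group lay close together, at 924 ± 36.4 (SD, n = 3) in knockdown cells and 262 ± 5.42 (SD, n = 2) in control cells. The rise was 1.76 (SE 0.0948, 95% interval 1.52 to 1.99, limma adjusted p = 0.00081). It held rank 29, and the brighter Mest probe rank 21, among the rises of all tested probes, and its call held under every alternative that was run.

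Igf2, an insulin-like growth factor that drives growth of the embryo and placenta, rose less on the log2 scale. Its probe (ILMN_2597769) had 8716, 8394 and 8860 intensity units in knockdown cells, against 5356 in each control array. The knockdown arrays were all higher, and the control values were identical, as they were at 34 of the 24613 probes. The rise was 0.69 (SE 0.092, 95% interval 0.47 to 0.91, limma adjusted p = 0.0074), which is 1.61-fold. The call was lost without control replicate 1 (adjusted p = 0.051) and without control replicate 2 (adjusted p = 0.056), with the difference at 0.69 each time.

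**Figure D2:**
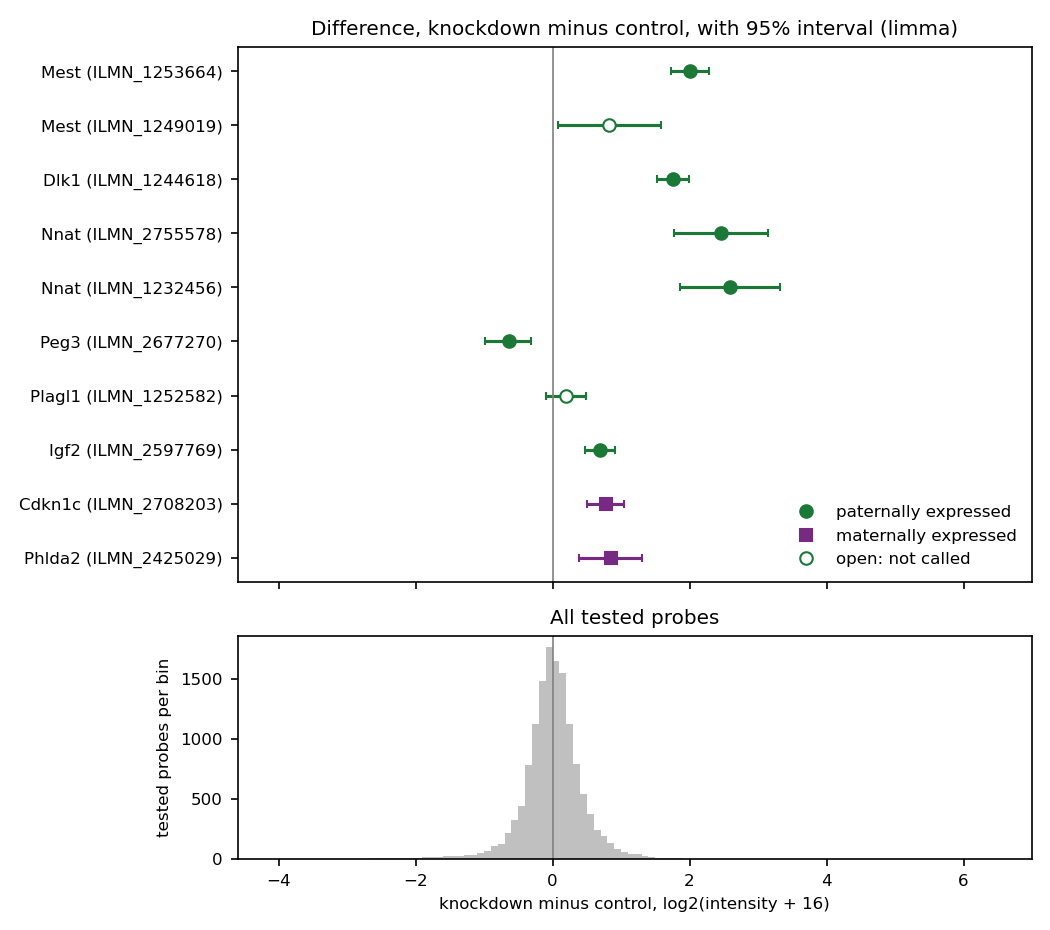
Top, difference between knockdown and control on the log2(intensity + 16) scale for the 10 tested member probes, with 95% intervals from limma. Circles are paternally and squares maternally expressed genes, and open symbols were not called. Bottom, the same difference for all 13624 tested probes, as a histogram in bins of 0.1. Nnat, Mest and Dlk1 lie at 1.76 or above except at the dimmer Mest probe, in the thin right end of the distribution.

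The remaining paternally expressed members are zinc finger genes, of which Peg3 fell and Plagl1 was not called. Peg3, which encodes a zinc finger protein linked to growth, cell death and maternal behaviour in mice, had 77.8, 103 and 83.9 intensity units in knockdown cells, against 137 and 155 in control cells (ILMN_2677270). Every knockdown array was below both control arrays. Peg3 fell by 0.64 (SE 0.137, limma adjusted p = 0.029), and its 95% interval ran from -0.98 to -0.31. Peg3 was no longer called when either control array was left out (adjusted p = 0.09 without replicate 1 and 0.16 without replicate 2), nor without knockdown replicate 1 (0.07) or 3 (0.082). It was also lost without the filter on dim probes (adjusted p = 0.13) and with an offset of 1 (adjusted p = 0.051).

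Plagl1 encodes a zinc finger factor that, in mice, regulates other imprinted genes, among them Igf2, Cdkn1c and Dlk1. Its brighter probe (ILMN_1252582) was close to the noise threshold in each array, with 26.0, 29.2 and 35.3 in knockdown cells, against 25.6 and 22.7 in control cells. The difference of 0.20 (SE 0.12, 95% interval -0.10 to 0.49) was not called (limma adjusted p = 0.32). The other probe (ILMN_1240034) had -4.08, 11.1 and -5.19 in knockdown cells, against 6.09 and 11.9 in control cells, and was under the noise threshold on all 5 arrays.

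The maternally expressed members act as brakes on growth, and those that were detected rose too. Cdkn1c, the cyclin-dependent kinase inhibitor p57, had 155, 136 and 129 intensity units in knockdown cells, against 77.2 and 71.8 in control cells (ILMN_2708203). The groups did not overlap, and the rise was 0.78 (SE 0.113, 95% interval 0.50 to 1.05, limma adjusted p = 0.0091). The call was lost without control replicate 1 (adjusted p = 0.052) and without control replicate 2 (adjusted p = 0.07).

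Phlda2, a small protein with a pleckstrin homology domain that limits placental growth in mice, had 72.7, 45.2 and 56.0 in knockdown cells, against 19.96 and 29.9 in control cells (ILMN_2425029). Control replicate 1 was just under the noise threshold, so only 1 of the control arrays measured this transcript. The rise was 0.85 (SE 0.19, 95% interval 0.38 to 1.31, limma adjusted p = 0.034). The call held when knockdown replicate 2 was left out, but not when another array was, with an adjusted p of 0.16 for control replicate 1, 0.082 for control replicate 2, 0.064 for knockdown replicate 1 and 0.085 for knockdown replicate 3. With an offset of 64 the difference was 0.45, with an offset of 1 the adjusted p was 0.058, and without the filter on dim probes the adjusted p was 0.17.

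Grb10, an adaptor that dampens signalling from the insulin and IGF1 receptors, was not detected. Its probe (ILMN_2641843) had -8.92, -1.84 and -4.37 in knockdown cells, against -14.5 and -4.77 in control cells, all under the noise threshold, so no direction can be given.

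Set side by side, both parental classes contained risers. Of the 7 paternally expressed genes, 4 rose, 1 fell, 1 was not called and 1 had no probe. Of the 3 maternally expressed genes, 2 rose and 1 was not detected. Over all tested genes, 8.99% rose and 7.97% fell. The paternally expressed risers spanned 0.69 to 2.46, and the maternally expressed ones had 0.78 and 0.85, so the values of the classes interleave, with Igf2 below both maternally expressed risers. The median difference was 1.22 over the 6 paternally expressed genes with a probe and 0.78 over the 3 maternally expressed genes with a probe (Grb10, with all its values below 0, entered at a difference of 0.0), against 0.0 over all 15967 genes with a probe. No test of the classes against each other was made, because the members were chosen with results of these data known.

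Sequences upstream of the members are shown because imprinted genes are controlled through CpG-rich DNA, and the zinc finger protein Zfp57 keeps imprints by binding the methylated hexamer TGCCGC. RefSeq promoter windows (250 bases before to 50 after an annotated start, GRCm38.p6) matched 8 of the 10 genes, with 14 windows in all. Each window was searched on both strands for TGCCGC and for the Sox-type cores AACAAT and ACAAAG, and no matches in these windows overlapped. TGCCGC was present in 6 of the 14 windows, from 5 genes (Mest, in 2 windows that overlap almost entirely, Nnat, Plagl1, Igf2 and Grb10), where 11.6% of all 32851 windows held it. AACAAT was present in 1 of the 14 windows (Igf2), where 10.7% of all windows held it, and ACAAAG in 0, where 18.7% did. The windows held 2 to 45 CG pairs, against a median of 7 over all windows. TGCCGC itself contains CG, and the member windows that hold it had 14 to 45 CG pairs. Windows of like CG content were not compared, so the share over all windows is not a matched background. A match is a description of the letters only, and the array does not say which start was used.

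The windows printed are those of the members with the largest rises, the Igf2 window with a match to a Sox-type core, and that of the member that fell. They lie at chr2:157559828-157560127 (plus strand, Nnat), chr6:30737800-30738099 (plus, Mest), chr12:109452573-109452872 (plus, Dlk1), chr7:142661222-142661521 (minus, Igf2) and chr7:6730370-6730669 (minus, Peg3). Each is given 5′ to 3′ on the strand of the gene, and capitals mark matches to the searched motifs or their reverse complements.
Nnat: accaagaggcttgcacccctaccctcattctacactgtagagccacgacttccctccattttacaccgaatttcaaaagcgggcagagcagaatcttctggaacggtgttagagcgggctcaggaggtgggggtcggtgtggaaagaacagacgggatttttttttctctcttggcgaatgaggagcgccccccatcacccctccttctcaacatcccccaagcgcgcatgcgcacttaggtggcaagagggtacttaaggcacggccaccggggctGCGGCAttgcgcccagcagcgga
Mest: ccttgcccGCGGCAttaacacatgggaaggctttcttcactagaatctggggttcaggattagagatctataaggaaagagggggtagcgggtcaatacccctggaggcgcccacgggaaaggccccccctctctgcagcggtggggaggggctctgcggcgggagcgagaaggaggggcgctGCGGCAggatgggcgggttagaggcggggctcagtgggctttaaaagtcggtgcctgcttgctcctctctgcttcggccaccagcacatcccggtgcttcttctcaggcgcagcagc
Dlk1: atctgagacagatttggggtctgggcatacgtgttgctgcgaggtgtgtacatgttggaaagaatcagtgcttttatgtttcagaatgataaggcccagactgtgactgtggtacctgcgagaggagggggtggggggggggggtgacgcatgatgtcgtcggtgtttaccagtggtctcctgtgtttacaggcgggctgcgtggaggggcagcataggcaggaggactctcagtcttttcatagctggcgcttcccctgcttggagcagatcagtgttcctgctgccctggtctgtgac
Igf2: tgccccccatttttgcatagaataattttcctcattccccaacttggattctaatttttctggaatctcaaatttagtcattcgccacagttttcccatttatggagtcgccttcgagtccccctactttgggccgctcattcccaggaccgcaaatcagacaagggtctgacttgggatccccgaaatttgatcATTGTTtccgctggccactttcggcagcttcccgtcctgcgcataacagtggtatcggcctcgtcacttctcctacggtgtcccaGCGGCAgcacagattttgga
Peg3: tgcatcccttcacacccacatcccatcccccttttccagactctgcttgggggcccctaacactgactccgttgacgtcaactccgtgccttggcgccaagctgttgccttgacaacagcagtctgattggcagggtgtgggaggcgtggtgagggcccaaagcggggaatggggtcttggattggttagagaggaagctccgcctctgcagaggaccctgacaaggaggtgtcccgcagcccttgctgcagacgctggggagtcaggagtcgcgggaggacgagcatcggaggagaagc
The Nnat window holds the Zfp57 hexamer once and the Mest window holds it at both capitalized places, as GCGGCA on the printed strand. The Igf2 window holds ATTGTT, the reverse complement of AACAAT, and 1 match of the hexamer. The Dlk1 and Peg3 windows hold no match. Another Mest window, not printed (chr6:30733256-30733555, 8 CG pairs), holds no match either.

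Genes beside the members on the chromosome were called at a share near that of all genes. The 3 nearest genes with a tested probe on each side of each member, in RefSeq gene order, were 51 distinct genes that are not themselves members. Of these, 5 rose and 2 fell, or 13.7%, where 17% of all tested genes were called. Such a neighbour need not be adjacent, as up to 11 coding genes lay between it and the member (Zfp78 and Peg3). The number called was 3 without control replicate 1, 2 without control replicate 2, 13 with an offset of 64 and 14 with robust, trended eBayes. Beside Mest, the nearest coding genes Cep41 and Copg2 differed by 0.22 and 0.41 and were not called (limma adjusted p = 0.22 and 0.11). Beside Nnat, Blcap, in whose intron Nnat lies, differed by 0.31 and was not called (adjusted p = 0.16), and limma called none of the 6 neighbours of Dlk1 (1 had an unadjusted p below 0.05). The 6 measured neighbours of the Peg10 gene gave no limma call either, with adjusted p from 0.054 to 0.69 (3 had an unadjusted p below 0.05).

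Grb10 was flanked by called genes on both sides. Ddc, the enzyme DOPA decarboxylase, had 1182, 1170.5 and 1358 intensity units in knockdown cells, against 729 and 596 in control cells, and rose by 0.89 (SE 0.132, limma adjusted p = 0.0098). Cobl, an actin nucleator, had 1940.1, 1774 and 1799.7 in knockdown cells, against 1155 and 1363 in control cells, and rose by 0.54 (SE 0.115, limma adjusted p = 0.028). The call of Ddc was lost without control replicate 2 (adjusted p = 0.066) and that of Cobl whichever array was left out (adjusted p from 0.064 to 0.14). The third neighbour of Phlda2 on its far side, the TNF receptor family gene Tnfrsf22, rose by 0.97 (SE 0.126, limma adjusted p = 0.007), which was no longer called without control replicate 1 (adjusted p = 0.052).

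The other called neighbours lay beside Mest, Igf2 and Peg3. Podxl, which encodes the sialomucin podocalyxin and is the third tested gene after Mest, fell by 1.24 (SE 0.162, limma adjusted p = 0.007), the opposite direction to Mest. Lsp1, a leukocyte actin-binding protein gene near Igf2, had 87.6, 55.4 and 72.5 intensity units in knockdown cells, against 24.3 and 2.13 in control cells, and rose by 1.68 (SE 0.344, limma adjusted p = 0.026). That call stayed when control replicate 1 was left out and was lost for each of the other arrays (adjusted p up to 0.074), with a difference of 1.11 without control replicate 2. The Lsp1 difference was 3.01 with an offset of 1 (call lost, adjusted p = 0.1) and 0.82 with an offset of 64, and the call was lost without the filter on dim probes (adjusted p = 0.17). On the sides of Peg3, the zinc finger gene Zfp28 fell by 0.57 (limma adjusted p = 0.018) and Aurkc, an aurora kinase gene, rose by 0.47 (limma adjusted p = 0.023). Between Peg3 and Zfp28 lay 10 coding genes, and between Peg3 and Aurkc 1. The Zfp28 call was lost when either control array was left out (adjusted p up to 0.11), and the Aurkc call for every array (adjusted p from 0.054 to 0.12).

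**Figure D3:**
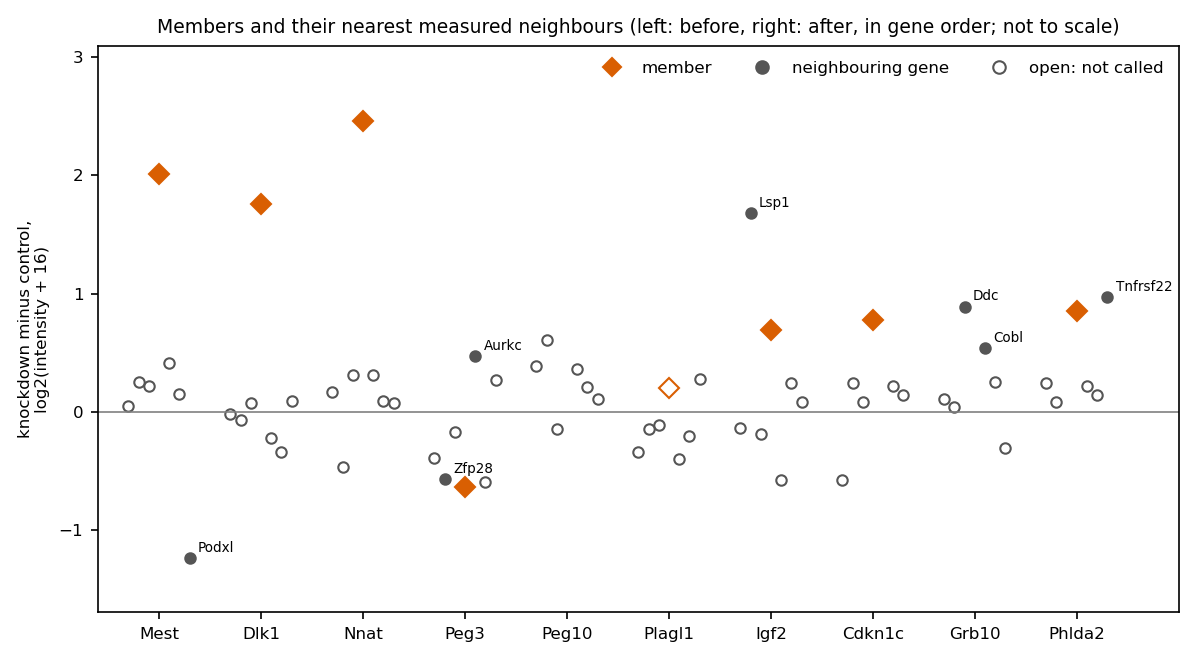
Difference between knockdown and control on the log2(intensity + 16) scale for each member (diamond) and for the 3 nearest tested genes on each side of it (circles, in gene order and not to scale). Filled symbols were called and open ones were not. The Nnat, Mest and Dlk1 diamonds lie above their own neighbours, which are within 0.5 of 0 apart from Podxl at -1.24. Members without a tested probe have no diamond.

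Other imprinted genes are set beside the members here, with no test of the difference between them. Of 22 other paternally expressed genes, 15 had a probe and 7 were tested, and limma called 0 of these (1 had an unadjusted p below 0.05). Among them, Snrpn, a splicing protein gene, differed by 0.12 and Ndn, the growth suppressor necdin, by 0.30 (limma adjusted p = 0.43 and 0.19). Their median difference was 0.12. Of 30 other genes listed as maternally expressed, 23 had a probe and 14 were tested. Of these, 2 rose (Ddc and Cobl) and 1 fell (Igf2r), with a median of 0.18. At an unadjusted p below 0.05, 6 were higher and 2 lower. The number called in this list was 1 whichever array was left out and 7 with robust, trended eBayes, and in the paternally expressed list it was 2 without knockdown replicate 1. Over all tested genes 17% were called and the median was 0.0047. Parental origin was taken from general knowledge, not from these data. Ddc is out of place on the maternal list, because its imprinted transcript in mice is paternally expressed. Counts and medians of these lists, here and below, keep Ddc where it was listed.

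Listed genes of insulin-like growth factor and insulin signalling were lower where they were called. Over all tested genes, 17% were called, 8.99% higher and 7.97% lower. Of 17 genes of insulin-like growth factor and insulin signalling, 7 were tested, 0 rose by limma's test (also 0 at an unadjusted p below 0.05), 3 fell and 4 were not called. It was 1 called gene when either control array was left out. Igf1, the related growth factor, had 37.2, 19.2 and 2.06 intensity units in knockdown cells, against 193 and 162 in control cells. It was detected in 1 of the knockdown arrays and fell by 2.58 (SE 0.424, limma adjusted p = 0.013), a call lost when either control array was left out (adjusted p up to 0.081). Its difference depends on the offset, at -3.74 with an offset of 1 (call lost, adjusted p = 0.1) and -1.55 with an offset of 64, and the call was also lost without the filter on dim probes (adjusted p = 0.13). Igf2bp3, an RNA-binding protein that binds Igf2 messenger RNA, fell by 1.06 (SE 0.123, limma adjusted p = 0.0048), and its other probe fell by 0.97.

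Igf2r, itself imprinted and maternally expressed, encodes the receptor that clears Igf2 by taking it to lysosomes. It had 654, 803 and 759.7 in knockdown cells, against 1088 and 1061 in control cells. All knockdown arrays were lower, and Igf2r fell by 0.54 (SE 0.12, limma adjusted p = 0.034), a call lost whichever array was left out (adjusted p from 0.051 to 0.14).

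Among the enzymes and factors that keep imprints, Zfp57 rose and Dnmt3b fell. Of 20 such genes, 14 were tested and these 2 were called, a share near the 17% of all tested genes, with a median of 0.07. At most 1 of them was called with any single array left out. Zfp57 had 1312, 1523 and 1709 intensity units in knockdown cells, against 898 and 859.5 in control cells, and rose by 0.77 (SE 0.134, limma adjusted p = 0.016). Dnmt3b, a de novo DNA methyltransferase, fell by 0.69 (SE 0.125, limma adjusted p = 0.018), while its dimmer probe differed by -0.48 and was not called (adjusted p = 0.34). The call of Zfp57 was lost when either control array or knockdown replicate 2 was left out (adjusted p up to 0.10), and that of Dnmt3b without any array other than control replicate 2 (adjusted p up to 0.088). Trim28, the co-repressor that Zfp57 recruits, and Dnmt1, the maintenance methyltransferase, were tested and not called.

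Of the kinases, cyclins and inhibitors around Cdkn1c, all 10 genes were tested, 4 rose, 1 fell and 5 were not called. Over all tested genes, 8.99% rose and 7.97% fell. The inhibitors most like Cdkn1c, Cdkn1a (p21) and Cdkn1b (p27), were among those not called. The G1 cyclin gene Ccnd1 rose by 1.06 (SE 0.19, limma adjusted p = 0.017), and Ccne2, Ccnd3 and Ccne1 rose by 0.70, 0.65 and 0.50. The other tested probes of Ccnd1 and Ccnd3 differed by 0.64 and 0.39 and were not called (limma adjusted p = 0.38 and 0.29). Averaging the tested probes of each gene lost both calls (limma adjusted p = 0.11 and 0.081). Ccnd2 fell by 1.06 (SE 0.159, limma adjusted p = 0.01). With control replicate 2 left out, limma called 0 of the 10. Leaving out knockdown replicate 1 or 3 gave 1 call, control replicate 1 gave 2, and knockdown replicate 2 gave 3.

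**Figure D4:**
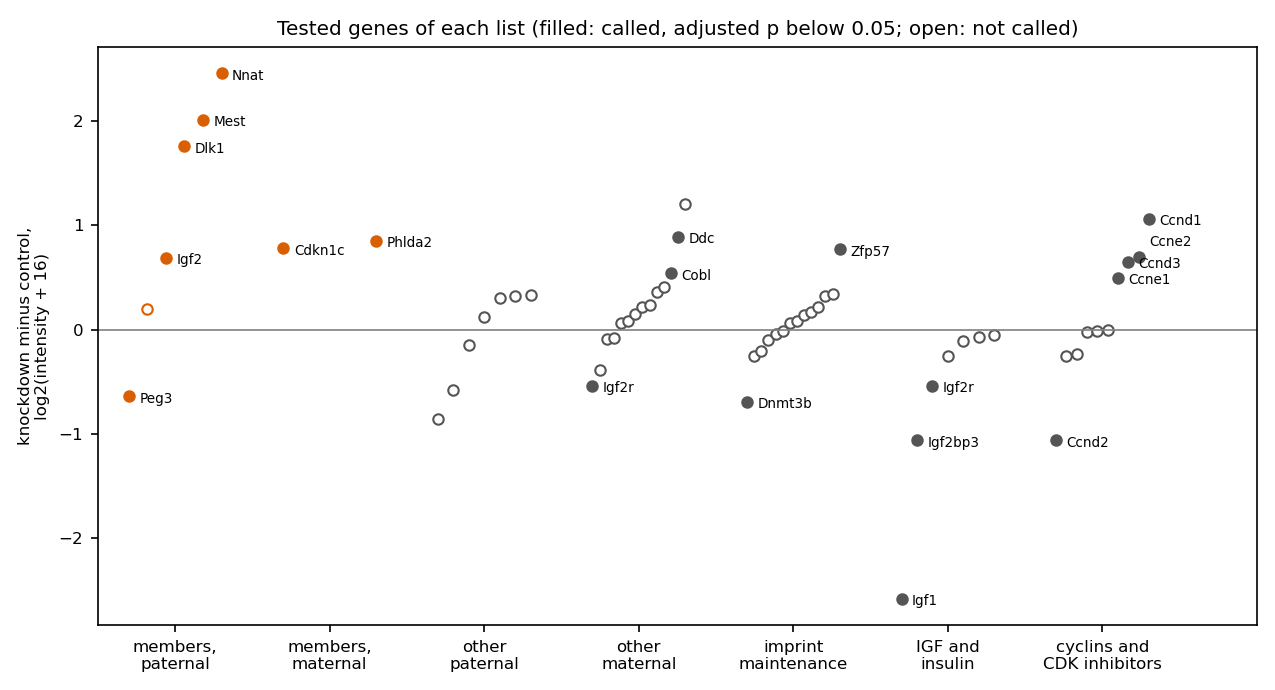
Difference between knockdown and control on the log2(intensity + 16) scale for each tested gene of the members (orange) and of the other lists (grey), 1 point for each gene. Filled points were called and are named, and open points were not called. Nnat, Mest and Dlk1 lie above all other genes shown, and Igf1 lies lowest at -2.58. Igf2r appears in both lists that hold it.

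Markers of several cell states moved in the same comparison, in which 8.99% of all tested genes rose and 7.97% fell. Of 18 endoderm markers, 16 were tested and all of these fell, with a summed intensity of 26798 to 30253 in knockdown cells, against 102818 to 104206 in control cells. The targeted genes Sox7 and Sox17 are on that list. Without them all 14 tested markers fell, with sums of 26083 to 29480 in knockdown cells and 99934 to 101103 in control cells. Ttr, which is in both counts, passed the filter through control arrays alone, so its fall is no support apart from the filter. Of 10 embryonal carcinoma markers, 9 were tested, 3 rose, 1 fell and 5 were not called. Their sums were 25269 to 27819 in knockdown cells and 20090 to 22022 in control cells. Nanog alone made up a large part of these sums, with means of 14001 in knockdown and 10157 in control cells. Of 12 fibroblast markers, 5 were tested and 4 rose, with sums of 1369 to 1442 in knockdown cells and 527 to 535 in control cells. Most of these sums came from Loxl1 alone, with means of 953 in knockdown and 281 in control cells. Col1a2, Col3a1, Postn, Lum and S100a4 were under the noise threshold on all arrays. Of 8 muscle markers, 3 were tested and 1 rose (Acta2). Of 10 neural markers, 5 were tested, 2 rose and 1 fell (Nefm). Nefm too passed the filter through control arrays alone, so its fall is no support apart from the filter. Of 10 trophoblast markers, 6 were tested and 3 fell. All 5 blood markers with a probe were under the noise threshold. The part of these shifts in the differences of the imprinted genes was not tested.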

How the data were processed

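Gene expression was measured on Illumina arrays, 3 of Sox7/Sox17 knockdown and 2 of control F9 cells. The intensities analysed were deposited by the authors already normalized. From the values, background had been subtracted (29.1% to 29.2% of each array lay below 0) and the arrays shared a distribution (sorted values differed by at most 0.394). The sources used here do not name the method, which removes overall differences in RNA amount. A second table, with 10 value columns whose headings match no sample label, was not used.

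Values below 0 were set to 0, 16 was added and log2 taken. The noise threshold was the 90% quantile of the sizes of an array's values below 0. limma 3.58.1 in R 4.3.3 (lmFit, eBayes) compared all 5 arrays, with 3 residual degrees of freedom, and was tested on simulated data. A permutation of single values cannot go below p = 0.1, since 5 arrays split into 3 and 2 in 10 ways. Each gene is represented by the brightest, on average, of its tested probes. A group under the threshold on all its arrays gives a bound, the brighter group's mean log2 intensity against the higher of threshold and signal. Symbols came from the platform annotation (20984 probes with 1 symbol, 1 with several, 3628 unnamed). Probe sequences were not used, so paralogs could share a signal. The number of arrays limits precision. All members were named at every probe, and of each other list up to 4 called genes in each direction, as well as called neighbours. Genes that were not called were named after their values were seen. The members and lists were chosen with earlier results of these data known, and list counts and medians stand without a set test. Tables and figures were made with Python 3.11.15, pandas 2.3.3 and matplotlib 3.10.9.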

Additional observations from a re-analysis of the deposited data

How the results depend on the processing

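The member results, the targeted genes Sox7 and Sox17, the neighbours and the imprinted, growth factor and cyclin lists were recomputed under up to 13 alternatives. A probe that an alternative does not test has no value there. The other cell state markers were not recomputed. Of the 27 single probes and genes that were called, the targeted Sox7 and Sox17 among them, none reversed. Of their 346 recomputed differences 247 stayed called and 99 lost the call. With an array left out, the number of called probes ranged from 594 to 1460 (2165 in all 5 arrays), called member probes from 4 to 8, member genes that rose from 3 to 6 and that fell from 0 to 1. Called neighbours ranged from 2 to 5. Calls ranged from 0 to 2 among other paternally expressed imprinted genes, were 1 throughout among other maternally expressed ones, and ranged from 0 to 1 for imprint maintenance, from 1 to 2 for insulin-like growth factor and insulin genes and from 0 to 3 for cyclins and inhibitors. Fewer arrays leave fewer residual degrees of freedom. With no filter on dim probes, limma called 979 probes, 4 member probes, 0 member genes that fell, 4 neighbours, 1 other maternally expressed gene, 0 imprint maintenance genes, 1 insulin-like growth factor gene and 0 cyclins or inhibitors. With an offset of 1, 0 member genes fell, 1 insulin-like growth factor gene was called and the maternal median was 1.04 (0.81 over the 2 tested genes in the reported fit). An offset of 64 gave 1 and 6 calls among other paternally and maternally expressed genes, 13 neighbours and a maternal median of 0.50, and an offset of 50 with values below 0 kept gave 1, 6, 12 and 0.56. Robust, trended eBayes called 3416 probes, 2 other paternally and 7 other maternally expressed genes, 4 imprint maintenance genes and 14 neighbours. Detection on all 5 arrays gave 5 calls among other maternally expressed genes. Averaging a gene's probes gave 1 call among other paternally expressed genes, 3 among cyclins and a paternal median of 1.06. The cause of these changes was not tested. With the replicate number as a block, 1090 probes were called, 0 member genes fell, and 1 other maternally expressed gene, 0 imprint maintenance genes and 3 cyclins or inhibitors were called. Deviations of same-numbered arrays correlated at 0.0072 and 0.0729 over 13624 probes, so the numbers give no sign of pairing. Signal over background limits Phlda2, Plagl1, Grb10 and the dimmer Mest and Nnat probes.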

Other observations

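Of the other imprinted genes that the comparisons above left unnamed, 3 that lay near the threshold and 3 that were not detected are given here. They are examples, since Ppp1r9a also lay near it, with a difference of 0.36 that was not called (limma adjusted p = 0.064). In all, 8 of the other paternally and 5 of the other maternally expressed genes were under the noise threshold on all 5 arrays. Snurf, which is made from a transcript shared with Snrpn, had 3028, 3108 and 3328 intensity units in knockdown cells, against 2468 and 2438 in control cells, at its dimmer probe (ILMN_2631979). All knockdown arrays were higher, and the difference of 0.36 was not called (limma adjusted p = 0.056), nor was that of 0.32 at its brighter probe (adjusted p = 0.075). Gnas, which encodes the stimulatory G protein alpha subunit, had 575, 609 and 646 in knockdown cells, against 759.7 and 851 in control cells, at its brightest probe (ILMN_2632206), with a difference of -0.39 that was not called (limma adjusted p = 0.06). Osbpl5, a lipid transfer protein gene of the same imprinted region as Phlda2, had 53.8, 37.6 and 47.5 in knockdown cells, against 0.177 and 28.02 in control cells, and its difference of 1.21 was not called (limma adjusted p = 0.094). Sgce, the gene next to Peg10, and Rtl1 and Dio3, of the same imprinted region as Dlk1, were under the noise threshold on all 5 arrays. These genes were chosen after their values were seen.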
